A study of Mus musculus with 2 samples.

Results

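The B-lineage commitment genes described here are 10 of the 32285 genes counted in both libraries: Ebf1, Pax5, Cd79a, Cd79b, Vpreb1, Vpreb3, Igll1, Blnk, Rag1 and Rag2, chosen by name and set beside the antibody tag for the surface protein B220. The cells were donor bone marrow cells of the mouse, sorted for the CD45.2 form of CD45 and for the receptor Kit, and profiled 10 weeks after transplantation by CITE-seq, in which each droplet gives counts of messenger RNA and of DNA tags on antibodies. Each group had 1 library, control or labelled Utx-deleted; below, values given in pairs are for the control library first. Utx is the protein made from Kdm6a, a histone H3 lysine 27 demethylase that is part of the MLL3 and MLL4 complexes, and the series title names B-cell priming as a process those complexes oppose. The deleted allele, the Cre that deletes it, the hosts, the number of animals and what the hashtags mark are not given in the sources used here. With 1 library in each group no test was possible: every interval is a 95% exact interval for counting error, and every difference is between these libraries.

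Commitment to the B lineage runs through a short chain of genes. The transcription factor EBF1 opens the programme and acts with its target PAX5, which holds cells in it. RAG1 and RAG2 cut immunoglobulin genes for recombination. The heavy chain first reaches the surface with a surrogate light chain made from VPREB1 and lambda5 (Igll1) and with the signalling pair CD79A and CD79B, and the adaptor BLNK carries the signal inwards. The surrogate light chain genes are then shut off, and RAG acts again on the light chain genes.

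After filtering, 7020 control cells (median 12402 UMIs, the unique molecular identifiers that stand for molecules) were kept, and 7157 of the library labelled Utx-deleted (median 11785 UMIs). The targeted gene did not check the label: Kdm6a stood at 110 CPM (counts per 1e+06 UMIs) in the control library and 103 CPM in the other, and 3-prime counts need not show a deleted exon. Cell barcodes shared by the libraries numbered 17, of which 13 were kept cells in both, and none of these held 3 or more members in either library Most cells carried 1 of 2 hashtags, and values per hashtag are given as the spread inside a library, not as replicates. Maturing neutrophils filled much of both libraries, and cells with at least 50 UMIs of the neutrophil gene Ltf or the myeloid gene Mpo made up 76.5% and 88.0% of the kept cells. In summed counts, fewer cells of a type and less RNA per cell cannot be told apart, so cells and levels are given separately.

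The members include 2 close pairs: Igll1 and Vpreb1 are 4417 bases apart on chromosome 16, and Rag1 and Rag2 are 5752 bases apart on chromosome 2 (GRCm38, GENCODE M21). Since most members differed together between the libraries, their promoters were searched for the E-box CAGGTG, the sequence bound by E2A, a factor that acts with EBF1, on both strands of the 250 bases before the start site (RefSeq, GRCm38.p6, the gene's strand, 5′ to 3′). Of the 9 members with a window, 5 held it (Blnk, Cd79a, Igll1, Rag1 and Vpreb1), against 17.2% of 32851 windows in the table. The EBF core CCCNNGGG was in the window of 1 member, Igll1, against 11.8% of all windows. These matches describe letters and not bound sites. Windows are shown for the surrogate light chain pair, Cd79a and Rag1, with the E-box in capitals.
Vpreb1 (chr16:16869256-16869505, minus strand): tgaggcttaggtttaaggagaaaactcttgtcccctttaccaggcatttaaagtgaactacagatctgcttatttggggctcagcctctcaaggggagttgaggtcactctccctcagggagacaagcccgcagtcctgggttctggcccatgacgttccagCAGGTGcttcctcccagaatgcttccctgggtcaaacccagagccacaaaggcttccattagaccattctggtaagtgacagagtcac
Igll1 (chr16:16863986-16864235, minus strand): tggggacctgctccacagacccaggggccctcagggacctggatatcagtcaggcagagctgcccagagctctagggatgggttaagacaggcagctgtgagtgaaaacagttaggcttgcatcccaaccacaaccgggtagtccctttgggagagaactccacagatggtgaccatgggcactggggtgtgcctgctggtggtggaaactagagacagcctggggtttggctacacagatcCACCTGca
Cd79a (chr7:24897247-24897496, plus strand): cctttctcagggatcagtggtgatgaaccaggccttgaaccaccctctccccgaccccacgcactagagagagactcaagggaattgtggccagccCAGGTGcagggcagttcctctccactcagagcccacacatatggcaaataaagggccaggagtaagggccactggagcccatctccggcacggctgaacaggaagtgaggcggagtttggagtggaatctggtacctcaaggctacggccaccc
Rag1 (chr2:101649533-101649782, minus strand): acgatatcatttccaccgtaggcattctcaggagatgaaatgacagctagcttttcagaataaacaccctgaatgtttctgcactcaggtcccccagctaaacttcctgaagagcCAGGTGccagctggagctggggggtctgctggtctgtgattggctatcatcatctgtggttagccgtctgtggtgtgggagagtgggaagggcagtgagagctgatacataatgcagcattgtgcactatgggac

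Summed over all kept cells, the library labelled Utx-deleted had less of each member, and 9 of the 10 were at least 2-fold lower; Cd79b was the exception. Among all 16339 genes with at least 20 UMIs, 7.71% were at least 2-fold lower and 2.4% at least 2-fold higher. With a minimum of 100 UMIs these shares were 5.45% and 1.31% of 13543 genes, and the members' count was again 9. The median log2 ratio was -2.28 over the members and -0.12 over all these genes. The same 9 members were past 2-fold lower in the cells of each hashtag taken alone. Pax5 was not past 2-fold without doublet removal (-0.96) or when each cell was thinned to 2000 UMIs (-0.62), which left 8.

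The factor genes Ebf1 and Pax5 differed unequally in summed UMIs. In the share of cells with a UMI their log2 ratios were close, at -1.40 and -1.35. Ebf1 (ENSMUSG00000057098) had 10256 UMIs (94.3 CPM) in the control library against 2254 UMIs (19.9 CPM) in the other. Its log2 ratio was -2.24 (-2.31 to -2.18), and cells with a UMI numbered 149 and 57. It was -1.60 without doublet removal and -1.53 when thinned. Pax5 (ENSMUSG00000014030) went from 7.35 CPM in 99 cells to 2.96 CPM in 39 cells, a log2 ratio of -1.31. Among the members past 2-fold, Pax5 had the smallest difference in summed UMIs.

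Vpreb3 and the surrogate light chain genes had the lowest ratios over all kept cells, an order that did not hold in hashtag 1, where Rag1 (-2.56) was below Vpreb1 (-2.29), or in thinned cells, where Cd79a (-1.72) was below Vpreb3 (-1.61). Vpreb1 (ENSMUSG00000059305) was at 23.8 CPM in the control library against 3.59 CPM in the other (log2 ratio -2.73). Igll1 (ENSMUSG00000075370) was at 12.7 and 1.92 CPM (-2.72), and Vpreb3, whose product associates with immunoglobulin chains inside the cell, at 22.6 and 3.38 CPM (-2.74, and -1.61 when thinned). The numbers of cells with a UMI differed less than the UMIs did: 274 and 148 cells for Vpreb1, 119 and 37 for Igll1, 105 and 39 for Vpreb3. The Vpreb1 transcript is 97.4% identical to that of Vpreb2 over 759 aligned bases, with a shared run of 196 bases, so the authors' counting could have split reads between them. Vpreb2 itself had 394 UMIs in 67 control cells and 30 UMIs in 7 cells of the other library.

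Of the receptor and adaptor genes, Cd79a (ENSMUSG00000003379) stood at 11.2 and 2.70 CPM (log2 ratio -2.05; 132 and 65 cells) and Blnk (ENSMUSG00000061132) at 8.85 and 1.78 CPM (-2.31, and -1.41 when thinned; 129 and 42 cells). Cd79b (ENSMUSG00000040592) stood apart at 14.1 and 8.99 CPM, a log2 ratio of -0.64 (-0.76 to -0.53), with 812 and 718 cells holding a UMI. The recombinase genes were thinly counted: Rag1 (ENSMUSG00000061311) had 181 and 37 UMIs in 53 and 17 cells (log2 ratio -2.32, and -1.49 when thinned), and Rag2 (ENSMUSG00000032864) had 160 and 40 UMIs in 94 and 26 cells (-2.03). The spread inside a library was not small beside these differences. Ebf1 in hashtag 2 over hashtag 1 had a log2 ratio of 1.77 in the control library and 1.27 in the other, and all 10 members were higher in hashtag 2 in both libraries. For Cd79b the control interval reached below 0.

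**Figure D1:**
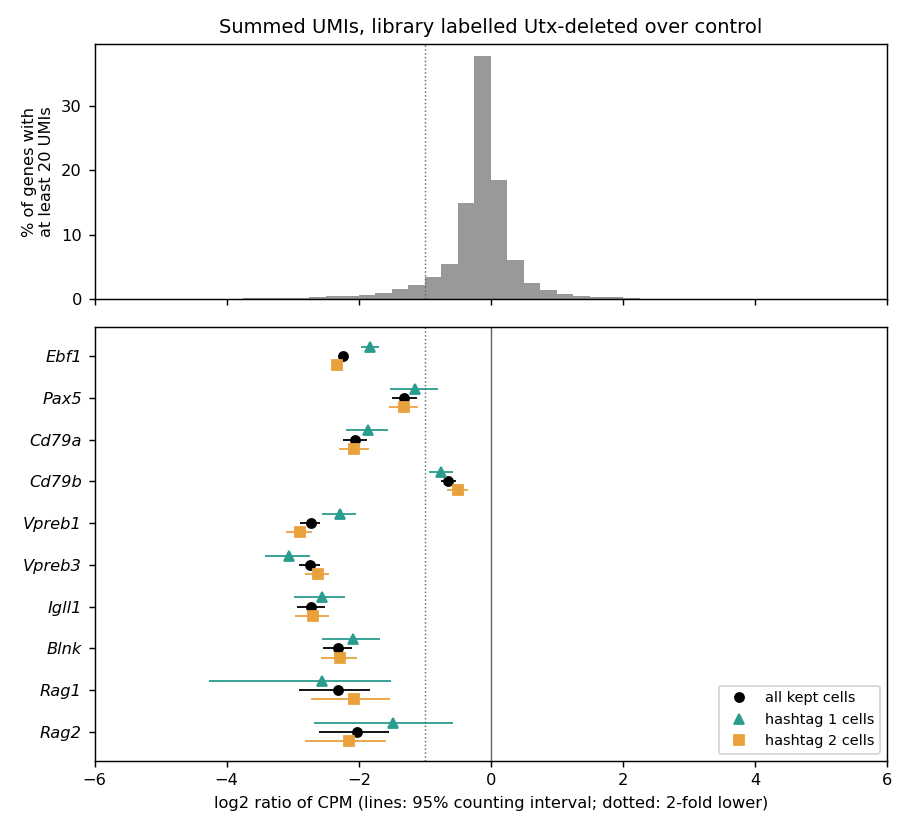
Top, log2 ratio of CPM (library labelled Utx-deleted over control) for the 16339 genes with at least 20 UMIs, as percent of genes per bin; bottom, the 10 members on the same axis over all kept cells and in each hashtag, with 95% counting intervals. Of the 10 members, 9 lie left of the 2-fold line in all 3 sets of cells, and Cd79b lies between that line and 0.

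Most member UMIs came from few cells. Cells with UMIs of 3 or more members numbered 103 of 7020 in the control library (1.47%, 1.20 to 1.78%) and 38 of 7157 in the library labelled Utx-deleted (0.531%, 0.376 to 0.728%), a 2.76-fold difference in share (1.89 to 4.12). They held 99.2% and 98.6% of Ebf1 UMIs, but 34.9% and 12.4% of Cd79b UMIs. Cells with 4 or more members numbered 86 and 34, a 2.58-fold difference (1.72 to 3.96), and cells with 8 or more 64 and 12, a 5.44-fold difference (2.91 to 11.1). Cells with 3 or more members were deeper in the control library (median 17132 and 4833 UMIs). Thinned to 2000 UMIs the fold at 3 or more was 2.99, and at 8 or more the part of depth was not tested. The doublet filter had removed 10 and 9 further cells with 3 or more members, a larger part of the second library's; without it the fold was 2.47. By hashtag, cells with 3 or more members numbered 29 and 10 for hashtag 1 and 70 and 26 for hashtag 2. The denominator mattered. Out of cells with under 50 UMIs of both Ltf and Mpo, an alternative chosen after seeing the data, the shares were 5.32% (88 of 1653) and 3.73% (32 of 858), a 1.43-fold difference, with intervals of 4.29 to 6.52% and 2.56 to 5.22% that overlap.

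Cells with exactly 3 members, 17 and 4, stood apart from those with more. They were deep (median 33377 and 30650 UMIs), 12 of 17 and 2 of 4 held no more than 6 member UMIs in all, and 8 and 2 held at least 50 Mpo UMIs. Cells with 4 or more members, 86 and 34, were therefore described by pattern, a choice made after seeing the data. Among these, 3 and 1 carried both hashtags, 5 and 1 held at least 50 Ltf UMIs, and 2 and 1 at least 50 Mpo UMIs. The part of mixed droplets in the patterns was not tested, though the Igll1 shares without the Ltf-rich and Mpo-rich cells are given.

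The libraries differed in which members these cells held. Igll1 was detected in 67 of 86 control cells (77.9%, 67.7 to 86.1%) and in 9 of 34 cells of the library labelled Utx-deleted (26.5%, 12.9 to 44.4%). These intervals cover the counting of cells inside 1 library and not the spread between libraries. In hashtag 1 the counts were 19 of 25 and 2 of 8, and in hashtag 2 they were 46 of 57 and 7 of 25. Thinned to 2000 UMIs a cell, the shares were 69.0% of 84 and 22.6% of 31. Without the cells rich in Ltf or Mpo they were 79.7% and 28.1%.

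The cells fell into 3 patterns. Cells with Igll1, 67 and 9, held nearly the whole list; 66 and 9 of them also held Dntt, the gene for the polymerase that adds bases at heavy chain joints, and none held Ms4a1, the gene for the mature B-cell protein CD20. Cells without Igll1 but with Rag1 or Rag2 numbered 2 and 8. In those 8, Il7r, the gene for the interleukin-7 receptor, was detected in 6 and the light chain gene Igkc in 4, while Dntt and Vpreb1 were in none; all 8 were of hashtag 2, and their median depth was 2729 UMIs. Cells with neither Igll1 nor Rag, 17 in each library, held Ms4a1 in 16 and 15 and Igkc in 14 and 15. By count of cells, the shortfall thus lay in the first pattern, while the third had the same count in both libraries. Among the 1653 and 858 cells not rich in Ltf or Mpo, 79 and 32 held 4 or more members, and 63 and 9 of these held Igll1. The patterns without Igll1 were not counted apart there, so equal counts need not be equal shares.

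**Figure D2:**
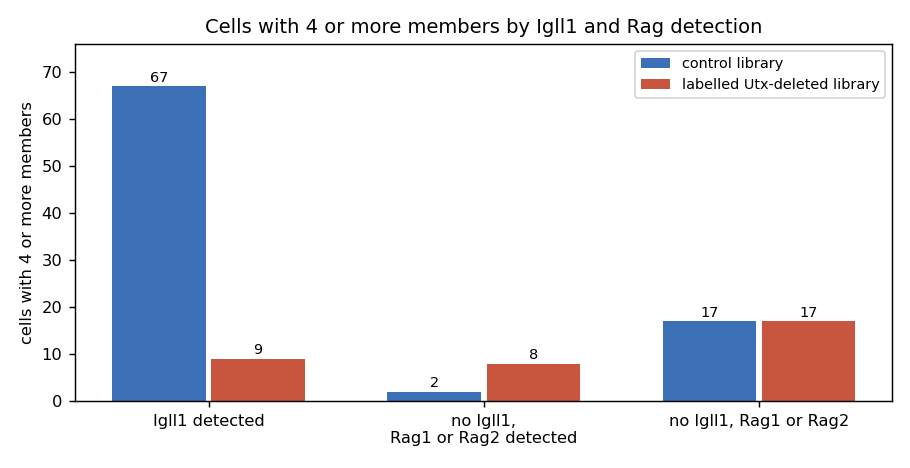
Number of cells with 4 or more members in each library (y axis), by whether Igll1, or Rag1 or Rag2 without Igll1, was detected. Cells with Igll1 number 67 and 9, and cells with neither number 17 in each library.

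**Figure D3:**
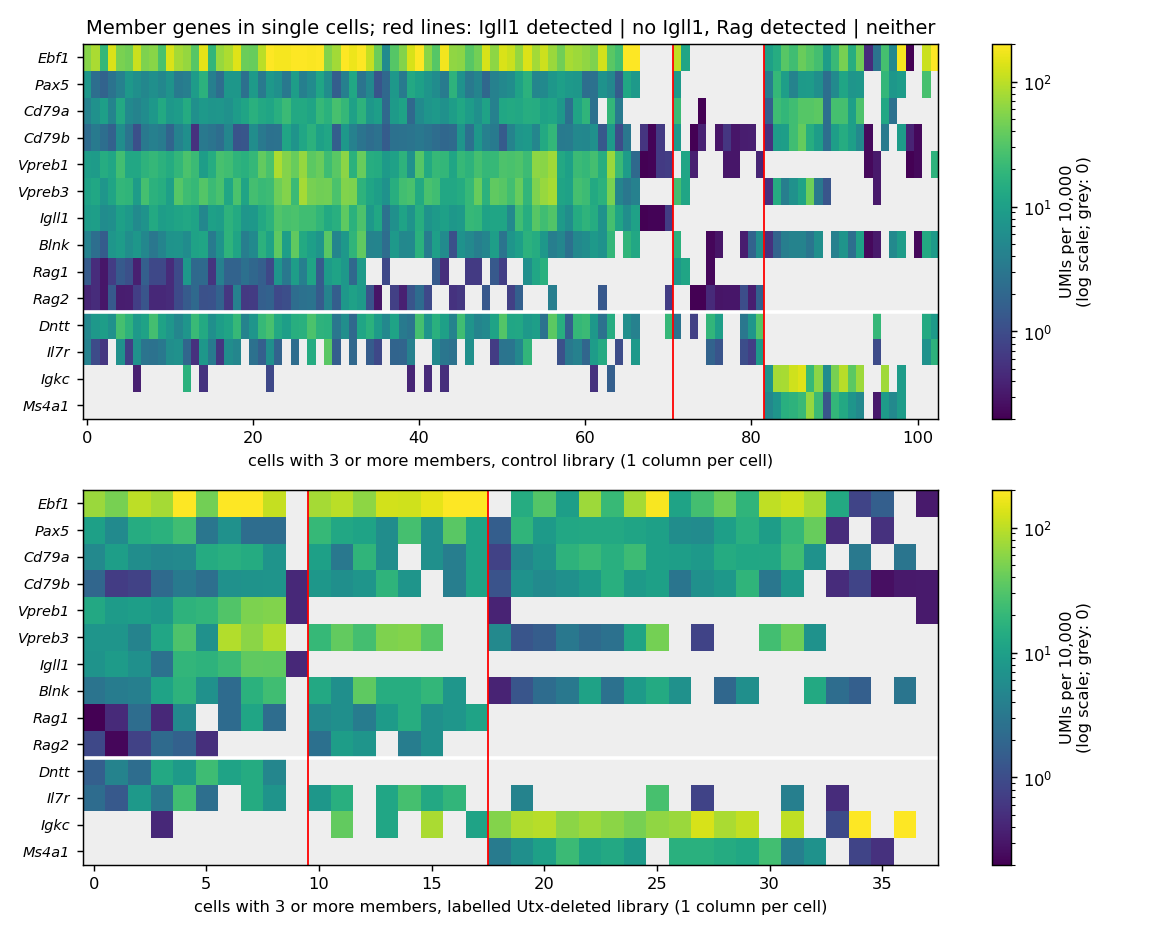
Each column is 1 cell with 3 or more members (103 control, top; 38 of the library labelled Utx-deleted, bottom); rows are the 10 members and, below the white line, Dntt, Il7r, Igkc and Ms4a1; colour is UMIs per 10000 on a log scale and grey is 0. The control library is mostly the left block with Igll1, and the other library mostly the blocks without it.

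Clusters made without the members and the compared lists gave a like division, though into clusters 19 and 21 and not 3 patterns. Vpreb2 and the light chain genes Iglc1 and Iglc3 were not among the genes left out. By fold, Vpreb2 was the top gene of cluster 19, and Iglc1 and Iglc3 were among the highest of cluster 21. The division is therefore not independent of close relatives of the members. In cluster 19 there were 68 control cells and 9 of the other library, with a median of 9.5 and 10 members; in cluster 21 there were 17 and 25 cells, with 5 and 6 members. No cell of cluster 21 held Vpreb1 or Igll1, and Rag1 was found in 1 of 17 and 8 of 25 of its cells. The CD117 (Kit) tag had medians of 206 and 141 per 10000 tag UMIs in cluster 19 and 45.0 and 105 in cluster 21, against 1380 and 1791 in cells like haematopoietic stem cells and multipotent progenitors (HSC/MPP-like) and 90.5 and 54.9 in maturing-neutrophil-like cells.

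Within the Igll1-detected cells, each pooled level differed by less than 2-fold between the libraries, and not in 1 direction. Here Ebf1 ranged from 18 to 464 UMIs a cell in the control library (median 128) and from 46 to 395 in the library labelled Utx-deleted (median 177), so the ranges overlap. Pooled, Ebf1 stood at 8276 and 8357 CPM (log2 ratio 0.015, -0.064 to 0.091), against a log2 ratio of -2.24 over all kept cells. The Igll1 level in these cells, 1115 and 1003 CPM pooled with medians over cells of 1143 and 1752 CPM, is that of cells chosen for it; over all cells with 4 or more members its log2 ratio was -0.88. Lower when pooled were Vpreb1 (1984 and 1395 CPM, log2 ratio -0.50), Vpreb3 (2009 and 1320 CPM, -0.60) and Cd79b (363 and 198 CPM, -0.84, -1.40 to -0.39). By a small margin, so were Blnk (-0.29, -0.61 to -0.014), Rag1 (-0.25) and Cd79a (-0.15). Medians over cells were 2013 and 1721 CPM for Vpreb1, 2219 and 1191 for Vpreb3, 327 and 250 for Cd79b and 700 and 651 for Blnk. For Cd79a they were 929 and 713 CPM, and for Rag1 88.8 and 221, the other way. The intervals count UMIs and not cells. Pooled Pax5 was higher, at 591 and 955 CPM (0.70, 0.45 to 0.93), but its medians over cells were 562 and 664 CPM, with 1 to 38 UMIs a cell in the control library and 1 to 56 in the other. Only 9 cells stand behind the second value of each pair.

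In the cells without Igll1 or Rag, pooled levels and medians over cells differed. Ebf1 stood at 1353 and 2493 CPM pooled (log2 ratio 0.88) but at medians of 2397 and 2505 CPM, and Pax5 at 417 and 738 CPM pooled (0.82) and medians of 782 and 1012 CPM. Depth in this pattern ran from 1090 to 41628 UMIs in the control library, and deep cells weigh most in a pooled level. Over all cells with 4 or more members, 1 member, Vpreb1, was past 2-fold lower (log2 ratio -1.24), where 5.72% of 8315 genes were; the members' median was -0.23 and that of all these genes 0.0025. Measured in cells chosen without the gene in question, the result turned on the number of other members asked for. With 2 or more others, the median log2 ratio over members was -1.23, in cells of which, for Ebf1, 40.6% and 33.0% held the gene at median depths of 25646 and 25840 UMIs. With 3 or more it was -0.23, and Ebf1 was then in 86.0% and 91.7% of the cells with a log2 ratio of 0.019. The members went both ways there, from Vpreb1 at -1.30 (-1.50 to -1.12) to Pax5 at 0.88 (0.69 to 1.07).

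Co-detection was uneven between Ebf1 and Pax5. Of cells with Pax5, 86.9% in the control library and 84.6% in the other also held Ebf1, whereas 57.7% and 57.9% of cells with Ebf1 held Pax5. Of cells with Rag1, 86.8% and 94.1% held Ebf1, and of cells with Rag2, 52.1% and 46.2%. Counting a member from 2 UMIs shrank the asymmetry between Ebf1 and Pax5 from 28.5 to 7.78 percentage points over both libraries. A single Ebf1 UMI was held by 59 and 23 cells and, of these, 1 and 0 held Pax5. Ebf1 UMIs were also found in 0.841% and 0.337% of maturing-neutrophil-like cells (median depth 10034 and 9759 UMIs), a type not known to use the gene, and in 1.54% and 0.358% of HSC/MPP-like cells (26736 and 31508 UMIs). The maturing-neutrophil-like class held largely different clusters in each library. Cluster 1 had 1225 and 30 cells, and cluster 0 had 49 and 1407. Cluster 2, with 1218 and 29 cells, scored highest for this class but was left unnamed. Whether single Ebf1 UMIs came from free RNA was not tested, and no order of onset was read from them.

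Cells were also ordered by Ebf1 UMIs. Of cells with 2 to 10, 4 of 8 and 4 of 5 held Pax5, and none held Igll1. Cells with 11 to 50 Ebf1 UMIs held Pax5 in 23 of 23 control cells and 19 of 19 of the other library, but Igll1 in 9 and 1. Above 50 Ebf1 UMIs, Igll1 was in 58 of 59 and 8 of 10. Median depth was 5177 and 3507 UMIs in the cells with 11 to 50 and 18240 and 12894 above 50, and its part was not tested; with 2 to 10 Ebf1 UMIs it was 5949 and 6289. The bins are not a time series: of the 14 and 18 cells with 11 to 50 Ebf1 UMIs and no Igll1, 11 and 10 held Ms4a1.

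Some members were detected where Ebf1 was not. Among the control HSC/MPP-like cells, 63 held 2 or more Dntt UMIs and 483 held none, at median depths of 27497 and 26873 UMIs. Blnk stood at 22.99 CPM (16.4 to 31.3) in the former and 0.734 CPM (0.352 to 1.35) in the latter, and Rag2 at 15.5 CPM (10.2 to 22.6) and 1.25 CPM (0.727 to 1.998). Blnk was found in 16 of the 63 cells and Rag2 in 14, against 6 and 17 of the 483. A single cell of the 63, with the B220 tag at 871 per 10000 tag UMIs, held 15 of their 40 Blnk UMIs. The Blnk level without that cell is not given. In the same 63 cells Pax5 and Cd79a had 0 UMIs (95% exact upper limit 2.12 CPM), and Ebf1 had 10 UMIs in 2 cells. Cd79b did not follow Dntt, at 18.4 CPM in both sets. The library labelled Utx-deleted held 3 HSC/MPP-like cells with 2 or more Dntt UMIs, too few for a level.

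**Figure D4:**
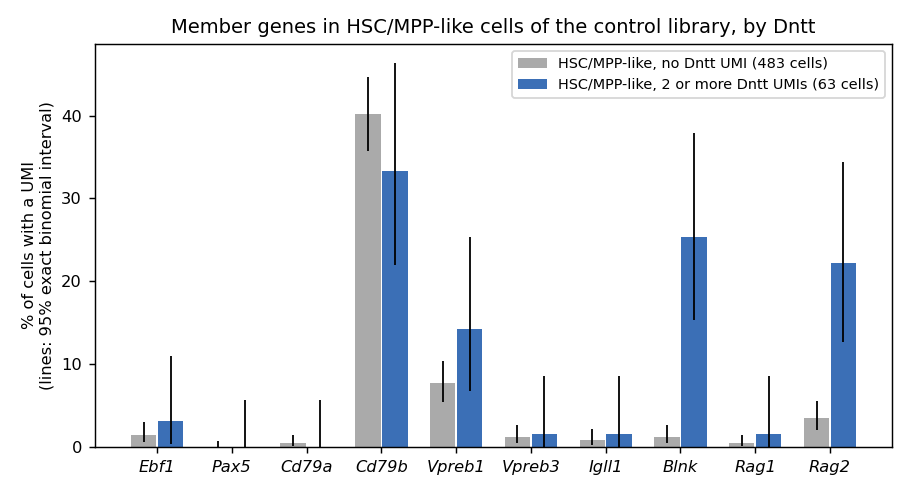
Percent of control HSC/MPP-like cells with a UMI of each member, in cells without Dntt (483) and with 2 or more Dntt UMIs (63); lines are 95% exact binomial intervals. Blnk and Rag2 are higher with Dntt, and Pax5 and Cd79a are at 0 in the cells with Dntt.

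Across all classes, 65 control cells and 6 of the other library held 2 or more Dntt UMIs without Ebf1. Of the 65, Cd79b was in 23, Blnk in 15, Rag2 in 13, Vpreb1 in 9, Rag1 in 2, Igll1 in 1, and Pax5, Cd79a and Vpreb3 in none. In the 67 and 10 cells with both Dntt and Ebf1, Pax5 was in 65 and 9 and Igll1 in 64 and 9. In the control library Dntt cells thus came with Ebf1 about as often as without, and both sets were smaller in the other library.

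Cd79b behaved unlike the other members. It was found in 38.9% and 36.2% of HSC/MPP-like cells, 61.6% and 40.7% of monocyte-progenitor-like cells and 46.7% and 43.3% of neutrophil-progenitor-like cells, but in 1.27% and 1.03% of maturing-neutrophil-like cells. Depth differed, with medians of 24712 to 33220 UMIs in the progenitor classes. Thinned to 2000 UMIs the HSC/MPP-like shares were 4.64% and 4.30%, and those of maturing-neutrophil-like cells 0.182% and 0.132%. In monocyte-progenitor-like cells Cd79b stood at 28.5 CPM (25.3 to 32.1) and 18.9 CPM (16.9 to 21.1). Cells with 3 or more members, as given above, held the smaller part of its UMIs in both libraries. Vpreb1 showed a fainter form of this, in 8.56% and 9.32% of HSC/MPP-like cells at 3.73 and 2.93 CPM.

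The B220 tag, an antibody readout that took no part in choosing cells, followed the members. A cell was called B220-positive above 448 per 10000 tag UMIs, the 99th percentile of cells with no member UMI. Of cells with 4 or more members 84 of 86 and 30 of 34 were positive, and of cells with exactly 3 members 4 of 17 and 1 of 4. In cells with no member UMI 0.923% and 1.07% were positive, a share that the cutoff itself sets. Medians in Igll1-detected cells were 1748 and 1434 per 10000, below those of cells with neither Igll1 nor Rag, 3672 and 2467. The tag for CD127, the protein made from Il7r, ran the other way, with medians of 42 and 30 UMIs in the Igll1-detected cells and 3 and 4 in the cells with neither. Unlike those of B220, these counts are not scaled to tag UMIs. Per 10000 tag UMIs, CD127 medians were 359 and 334 in cluster 19 and 30.7 and 65.5 in cluster 21. Of all B220-positive cells, 158 and 113, no member was detected in 54 and 67, numbers that also follow from the cutoff. With the 95th percentile (146 per 10000) as cutoff they were 353 of 602 and 252 of 411.

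**Figure D5:**
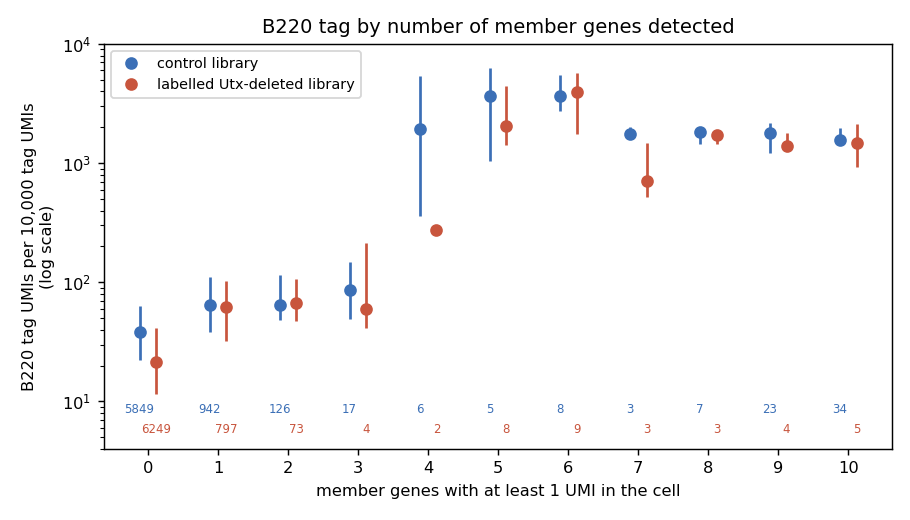
B220 tag per 10000 tag UMIs (log axis) against the number of members with a UMI in a cell; points are medians, lines quartiles, and printed numbers are cells. Cells with 5 or more members lie far above those with 3 or fewer in both libraries.

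Other genes of the pathway were counted from lists. Of 18 early lymphoid and B transcription genes, 6 were at least 2-fold lower and 0 higher (median log2 ratio -0.32); they were Dntt (-3.62), Lef1 (-2.33), Flt3 (-2.33), Pou2af1 (-1.96), Bach2 (-1.22) and Il7r (-1.06). Of 12 pro-B and pre-B signalling genes 5 were lower and 0 higher (median -0.51), among them Bank1 (-2.05), the gene for a scaffold of B-cell receptor signalling. Only 327 of the 3509 control UMIs of Bank1 lay in cells with 4 or more members, where its log2 ratio was 0.32. Of 10 mature B genes 1 was lower and 1 higher (median 0.20). Igkc was the higher one, at 779 and 17900 UMIs, but 2 cells of the second library held 12007 and 4713 of these, and without them its log2 ratio was 0.54, not past 2-fold. Of 8 recombination genes 1, Dntt, was lower and 0 higher, and of 7 plasma cell genes 2 were lower and 2 higher. The higher ones were Jchain and Ighg2c, of which single cells of the second library held 808 of 1152 and 1913 of 1935 UMIs. Over all genes 7.71% were lower and 2.4% higher, and the calls in the last 3 lists rest on at most 2 genes in each direction.

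Inside the cells with 4 or more members the lists divided otherwise. Of 9 mature B genes with enough UMIs 7 were past 2-fold higher in the second library (median log2 ratio 1.35), where 4.85% of genes were, among them Ms4a1 (2.11). Igkc and Ighm were also among the 7. A single cell of the second library held 4713 of its 5643 Igkc UMIs there. Ighm stood at 976 and 10650 CPM in the cells with neither Igll1 nor Rag. Among those with 6 or more members it stood at 1644 and 1810 CPM. Of 18 early lymphoid genes 2 were lower, Dntt (-1.52) and Erg (-1.03), and 3 higher, Irf4 (1.85), Ikzf3 (1.66) and Spib (1.57), with a median of 0.19. Of 11 signalling genes 1 was lower and 4 higher (median 0.69), among the latter Ly6d (3.06), a lymphoid surface protein gene. Over all genes in these cells 5.72% were lower, and the lower calls in these lists rest on 2 genes and 1 gene. In cells with neither Igll1 nor Rag, Ms4a1 stood at 622 and 818 CPM. Cd74 stood there at 2733.5 and 2107.5 CPM, lower in the second library. Over all cells with 4 or more members its log2 ratio was 1.31. In Igll1-detected cells Ms4a1 had no UMI in either library, and Dntt stood at 1140 and 687 CPM. For the lists as a whole, the part of the shares of the 3 patterns was not separated from change within a pattern.

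By the share of their UMIs in cells with 3 or more members, Gm30211 (99.6%), Gm12158 (99.3%) and Vpreb2 (99.3%) were most like the members among 14705 genes, ranked over both libraries together; Gm30211 had 27 and 231 UMIs, the reverse of the members' direction. Cecr2 (97.3%) was in 100 of the 141 such cells. Igkv1-135, Gm32569, Ighg2c, Ighv2-9-1, Iglc1, Fcmr and Igkc were also among the highest 12. Ighg2c and Ighv2-9-1 each came from 1 of those cells.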

How the data were processed

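The authors deposited raw counts of UMIs per gene or antibody tag and cell barcode; Cell Ranger 7.1.0 and mm10 are named in the submitters' processing notes. Whether intronic reads were counted and how cells were called is not given in the sources used here. Python 3.11.15, scanpy 1.11.5, scipy 1.17.1 and leidenalg 0.10.2 were used. Cells with 500 genes and under 10% mitochondrial UMIs were kept (349 and 214 barcodes left out), and the top 6% of Scrublet scores removed (458 and 512), since its automatic threshold marked 0.0267% and 0%. UMIs were summed per library as CPM, and log2 ratios used 1 added UMI. Clusters used 2000 variable genes without members or lists, 30 components, 15 neighbours and resolution 1, and were named from marker lists. Hashtags were called at 100 UMIs and 5 times the other. All 10 members are named; like genes are the 12 highest of those with 50 UMIs, of which 1 is not reported here. The ratio rule was tested on simulated data. Members and lists were chosen with earlier results of these data known. Alternatives are in the closing section.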

Additional observations from a re-analysis of the deposited data

How the results depend on the processing

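All 10 members kept a log2 ratio below 0 under each of the 9 alternatives that gave one per member (90 of 90 values). The count past 2-fold was 8 or 9, and 10 members were past 1.5-fold. Pax5 missed it without doublet removal (-0.96) and when cells were thinned to 2000 UMIs (-0.62). The members' median was -1.77 without doublet removal, -1.55 when thinned and -1.97 in hashtag 1. The fold in the share of cells with 3 or more members lay between 2.47 and 2.99, except for 1.43 out of cells not rich in Ltf or Mpo; with 2 or more members it was 2.10 and with 4 or more 2.58. The median level in cells chosen by other members was -0.84 without doublet removal and -0.23 with 3 or more others. The Ebf1 and Pax5 asymmetry was 7.78 points from 2 UMIs. The B220-positive share of cells with 3 or more members, 84.4%, lay between 82.5% and 87.9%. The Igll1 difference, 51.4 percentage points, lay between 42.2 and 52.7. The cause of these shifts was not tested. No paired analysis was possible because each group has 1 library. Cell counts of 9 and 34 in the library labelled Utx-deleted limit every value within B-lineage cells.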

Other observations

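A single cell of the library labelled Utx-deleted held 1913 of the 1935 Ighg2c UMIs in the series, and the control library held none. It was among the cells with 3 or more members but not among those with 4 or more.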
